A study of Mus musculus with 3 samples.

Results

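The 10 genes described here are *Cdkn1a*, *Mdm2*, *Trp53inp1*, *Plk2*, *Btg2*, *Sesn2*, *Bbc3*, *Bax*, *Phlda3* and *Perp*, a named set of transcriptional targets of the tumor suppressor p53, out of 23421 gene symbols in the deposited table. They were chosen by name, not by a threshold on their values, but with earlier results of these data known. All 10 were listed in the table. The libraries were made from total RNA of the embryo proper, the epiblast with the visceral endoderm around it. They came from mouse embryos at embryonic day (E)6.5, labelled as strain 129/SvEv for all 3 libraries. The study, however, proposes non-inbred backgrounds that differ between embryos as a possible source of variable mutant phenotypes. There was 1 library each of wild-type, tw18/+ and tw18/tw18 embryos, all from matings of tw18/+ mice. Among E6.5 embryos that the study stained from such matings, the mutants were described as slightly younger. A difference in stage therefore cannot be told apart from one in genotype here. The tw18 haplotype carries a deletion on chromosome 17 that takes out *Ppp2r1a*, which encodes a scaffolding subunit of protein phosphatase 2A. The tw18/tw18 embryos die from gastrulation defects that set in at E6.5. The number of embryos behind each library was not given in the sources used here. With 1 library per genotype there were no replicates, so no test was possible, and each difference below is between 3 libraries and not shown to be one between genotypes.

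The p53 protein, encoded by *Trp53*, is a transcription factor that is kept low in unstressed cells by the ubiquitin ligase MDM2. DNA damage, nutrient stress or faults in ribosome production stabilize it, and it then binds response elements near genes that arrest the cell cycle, repair DNA, adjust metabolism or kill the cell. *Mdm2* is itself a target, which closes a negative feedback loop. The epiblast of the gastrulating mouse embryo divides fast and is known to be sensitive to DNA damage, which it answers with p53-dependent cell death.

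The deposited values were FPKM, fragment counts divided by transcript length and library size, and were used without a pseudocount for ratios. From the steps between low FPKM values, the libraries held about 14700000 (wild type), 20800000 (tw18/+) and 20700000 (tw18/tw18) fragments. *Ppp2r1a* was at 146 FPKM in wild type, 81.7 in tw18/+ and 12.8 in tw18/tw18, the order that the labels give. The source of the fragments of this deleted gene in the tw18/tw18 library was not tested. *Lars2*, a gene needed by every cell, was at 11199 FPKM in wild type and 9689 in tw18/+ but was listed at 0 in tw18/tw18. An entry of 0 is therefore reported below only as listed at 0. Whether the very high *Lars2* values in wild type and tw18/+ reflect its mRNA was not tested. The epiblast label was checked with 10 marker genes, all of them detected, and *Pou5f1* was at 628 FPKM in wild type, 721 in tw18/+ and 274 in tw18/tw18. Markers of visceral endoderm, which was dissected with the epiblast, and of decidua and stroma, which were not named as part of the sample, were also present and are given further on.

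Promoter sequence of the targets was searched for the p53 response element consensus, 20 letters made of a pair of 10-letter units, on both strands without a spacer. RefSeq windows of GRCm38.p6, from 250 bases before to 50 bases after an annotated start, were given for 8 of the 10 genes, with 11 windows in all, and none for *Trp53inp1* and *Perp*. A start of *Cdkn1a* had a match with 1 mismatch, 51 to 32 bases before the start, whereas 0.0883% of 32851 promoters had a match as close or closer. *Bbc3* and *Bax* each had a match with 3 mismatches, a level reached by 6.29% of all promoters, and the best match in every other window had 4 or more. The *Cdkn1a* match also held the pair of core letters CATGNNNNNNCATG, found in 0.712% of promoters. Single units without a mismatch, found in 8.36% of promoters and able to overlap the full match, numbered 2 in that *Cdkn1a* window and 1 each in the *Mdm2* and *Bax* windows. The 120 bases that hold each of these 3 matches are shown because they are the nearest likenesses to a p53 element among the windows, with the match in capitals, 5′ to 3′ on the strand of the gene. They lie at chr17:29090859-29090978 on the plus strand (*Cdkn1a*), chr7:16309463-16309582 on the plus strand (*Bbc3*) and chr7:45467029-45467148 on the minus strand (*Bax*).
Cdkn1a: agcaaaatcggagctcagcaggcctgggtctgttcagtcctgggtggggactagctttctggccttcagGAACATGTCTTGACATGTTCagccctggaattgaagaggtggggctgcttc
Bbc3: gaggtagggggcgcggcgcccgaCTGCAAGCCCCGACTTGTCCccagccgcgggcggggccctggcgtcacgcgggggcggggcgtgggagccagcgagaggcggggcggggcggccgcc
Bax: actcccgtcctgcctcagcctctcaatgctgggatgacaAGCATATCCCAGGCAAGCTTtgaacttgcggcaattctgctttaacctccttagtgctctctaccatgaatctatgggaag
These matches describe letters in the windows and do not show binding. The p53 elements described for *Mdm2* lie in an intron, which the window does not cover.

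All 10 targets had their highest FPKM in the tw18/tw18 library, an order shared by 41% of the 13118 genes at 1 FPKM or more in any library. In tw18/tw18 against wild type, 6 of the 10 were higher and none was lower at a threshold of 1 on the log2 ratio, in either direction, beside 15.1% of 12917 genes higher and 6.94% lower. Counts of genes as higher or lower all refer to this threshold, with 1 FPKM or more in at least 1 library of the pair. The 6 were *Plk2*, *Phlda3*, *Btg2*, *Cdkn1a*, *Trp53inp1* and *Bbc3*. The median log2 ratio of the 10 was 1.46, and that of all genes was -0.01. Summed over the 10, the level was 131 FPKM in wild type, 132 in tw18/+ and 259.5 in tw18/tw18. In such bulk libraries a difference in the number of cells of a type and a difference in RNA per cell cannot be told apart.

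**Figure D1:**
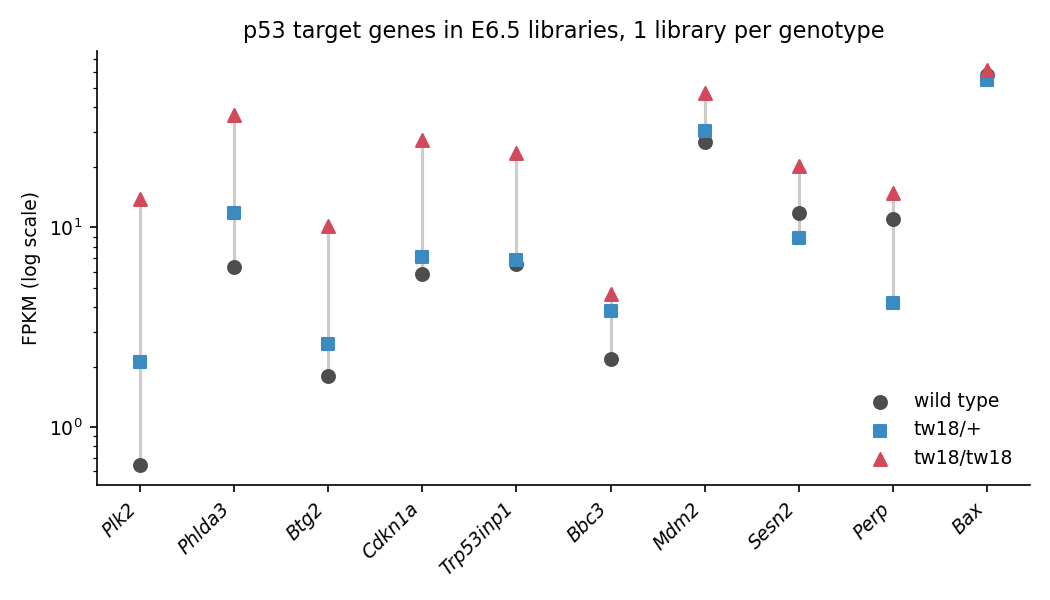
FPKM of the 10 p53 target genes on a log axis in the wild-type (circle), tw18/+ (square) and tw18/tw18 (triangle) library, with a grey line joining the 3 values of a gene, ordered by the log2 ratio of tw18/tw18 to wild type. The triangle is the highest point for every gene, from 21.4 times the wild-type value for *Plk2* to 1.05 times for *Bax*.

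The 3 targets grouped here by a role in the cell cycle were all higher in tw18/tw18. *Cdkn1a* (chr17:29090979-29100722) encodes p21, the inhibitor of cyclin-dependent kinases through which p53 arrests cells, and its level was 5.88 FPKM for wild type, 7.11 for tw18/+ and 27.3 for tw18/tw18. The wild-type and tw18/+ libraries were close and tw18/tw18 stood well above both. Its log2 ratio of tw18/tw18 to wild type was 2.21, a 4.64-fold difference, with a 95% interval for counting error of 1.97 to 2.47. The gene is on the same chromosome as *Ppp2r1a* (chr17:20945454-20965905), beyond the distal end of the deletion as the study mapped it.

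*Btg2* (chr1:134074865-134079155), an antiproliferative gene that acts on mRNA deadenylation, was at 1.81 FPKM in wild type, 2.61 in tw18/+ and 10.2 in tw18/tw18. The log2 ratio of tw18/tw18 to wild type was 2.49, with a counting interval of 2.13 to 2.88. *Plk2* (chr13:110395044-110400844), a polo-like kinase with a role in centriole duplication and stress checkpoints, had the lowest level of the 10 in wild type, 0.646 FPKM, and was at 2.13 FPKM in tw18/+ and 13.8 in tw18/tw18. Its log2 ratio was the largest of the 10 in each of the 3 pairs of libraries, 4.42 against wild type, 2.70 against tw18/+ and 1.72 for tw18/+ against wild type. The wild-type value rested on about 25.3 fragments, against about 759 in tw18/tw18, and the counting interval of the ratio was 3.86 to 5.07. Against wild type it ranked 265 among 12917 genes by log2 ratio.

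The feedback gene *Mdm2* (chr10:117688875-117710758) was at 26.6 FPKM in wild type, 30.3 in tw18/+ and 47.3 in tw18/tw18. It was highest in tw18/tw18, yet its log2 ratio to wild type, 0.83 with a counting interval of 0.73 to 0.93, was under 1. *Trp53* itself, not one of the 10, was at 181 FPKM in wild type, 176 in tw18/+ and 123 in tw18/tw18, a log2 ratio of -0.56. The mRNA of p53 was thus lowest in the library in which its targets were highest. *Mdm4*, whose product binds and restrains p53 beside MDM2, was at 12.2, 11.01 and 14.3 FPKM in these libraries, so its log2 ratio was 0.23.

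Both targets that act on growth signalling were highest in tw18/tw18, to different extents. *Phlda3* (chr1:135766085-135769134), whose PH-domain product competes with AKT for membrane lipids, was at 6.32 FPKM in wild type, 11.9 in tw18/+ and 36.5 in tw18/tw18. Its 3 levels were well spread in that order, with a log2 ratio of tw18/tw18 to wild type of 2.53 and a counting interval of 2.25 to 2.81. *Sesn2* (chr4:132492804-132510456) encodes a sestrin, a leucine sensor that inhibits mTORC1, and was at 11.8 FPKM in wild type, 8.87 in tw18/+ and 20.3 in tw18/tw18. Here tw18/+ was the lowest library, so the log2 ratio was 0.78 against wild type and 1.19 against tw18/+. *Sesn2* is also a target of ATF4, the transcription factor of the amino acid response. Of 12 other ATF4 targets, none was higher and 1 was lower at that threshold in tw18/tw18 against wild type, with a median of -0.17. Against tw18/+, 1 of 11 was higher and none was lower, with a median of 0.24. In tw18/+ against wild type none of 12 was higher and 2 were lower. The part of ATF4 in the level of *Sesn2* was not tested.

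The 4 targets with roles in cell death differed among themselves. *Trp53inp1* (chr4:11156441-11174379), a nuclear protein that promotes p53-dependent death and autophagy, was at 6.55 FPKM in wild type, 6.84 in tw18/+ and 23.7 in tw18/tw18. The first pair of libraries was nearly level, and the log2 ratio of tw18/tw18 to wild type was 1.85, with a counting interval of 1.71 to 1.99. *Bbc3* (chr7:16308398-16318334), which encodes the BH3-only protein PUMA, was at 2.199 FPKM in wild type, 3.81 in tw18/+ and 4.62 in tw18/tw18. For this gene tw18/+ was nearer to tw18/tw18 than to wild type. Its log2 ratio to wild type was 1.07, with a counting interval of 0.61 to 1.54 that spans the threshold of 1. With a pseudocount of 1 FPKM it was 0.81.

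*Bax* (chr7:45461695-45466903), the effector that permeabilizes the mitochondrial outer membrane, had the highest level of the 10 in each library, 58.1 FPKM in wild type, 54.8 in tw18/+ and 61.1 in tw18/tw18. The 3 libraries were nearly level, with a log2 ratio of tw18/tw18 to wild type of 0.07 and a counting interval of -0.08 to 0.22. Of its 50-base words 8.51% were shared with *Gm45808*, which overlaps it on the same strand. *Perp* (chr10:18845071-18857073), a membrane protein of desmosomes that p53 induces during cell death, was at 11.1 FPKM in wild type, 4.18 in tw18/+ and 14.8 in tw18/tw18. The tw18/+ library was well below the other two, so *Perp* was higher in tw18/tw18 by a log2 ratio of 1.82 against tw18/+ and of 0.42 against wild type.

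The 3 pairs of libraries share libraries and are therefore not independent. Against tw18/+, 7 of the 10 targets were higher in tw18/tw18 at the same threshold and none was lower, with a median of 1.71, beside 14.9% of 12846 genes higher and 5.65% lower. *Sesn2* and *Perp* passed here and not against wild type, and *Bbc3*, with a log2 ratio of 0.28 and a counting interval of -0.07 to 0.62, passed against wild type and not here. Higher against both were 5 of the 10 (*Cdkn1a*, *Btg2*, *Plk2*, *Phlda3* and *Trp53inp1*), beside 9.89% of 13118 genes. Between tw18/+ and wild type, 1 target was higher (*Plk2*) and 1 was lower (*Perp*, a log2 ratio of -1.40), beside 4.7% and 5.02% of 12426 genes, and the median of the 10 was 0.23. The level was lowest in wild type, intermediate in tw18/+ and highest in tw18/tw18 for 7 of the 10, beside 21.1% of genes, the exceptions being *Sesn2*, *Bax* and *Perp*. For *Cdkn1a* the step from wild type to tw18/+ was a log2 ratio of 0.27 with a counting interval of -0.02 to 0.57, which includes 0, whereas for *Phlda3* it was 0.91 with an interval of 0.60 to 1.22.

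**Figure D2:**
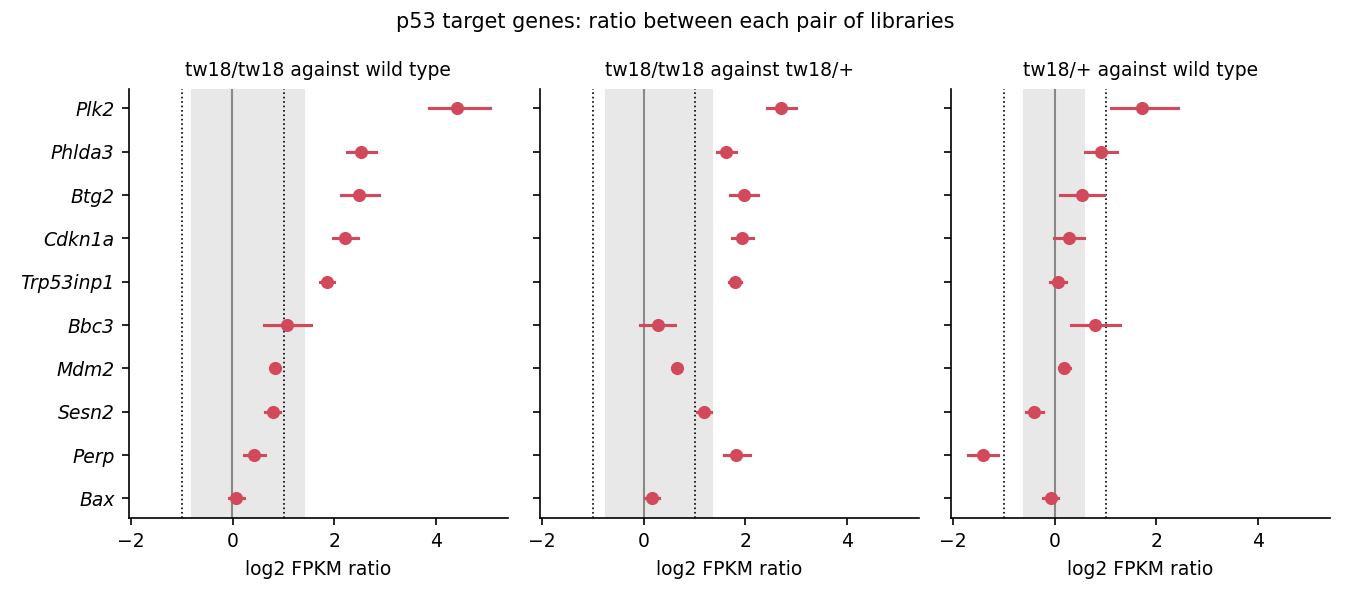
Log2 FPKM ratio of the 10 p53 target genes in each pair of libraries (points), with 95% intervals for counting error only (bars), the 10th to 90th percentile of all genes at 1 FPKM or more (grey band), their median (grey line) and log2 ratios of -1 and 1 (dotted lines). *Plk2*, *Phlda3*, *Btg2*, *Cdkn1a* and *Trp53inp1* lie to the right of the band in both comparisons of tw18/tw18, and only *Perp* lies to the left of a band, in tw18/+ against wild type.

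The order of the levels within a library also differed. FPKM is per length, so levels of different genes can be set side by side. In wild type, *Bax* and *Mdm2* led, *Sesn2* and *Perp* followed at 11.8 and 11.1 FPKM, and *Trp53inp1*, *Phlda3* and *Cdkn1a* were close together between 5.88 and 6.55. *Bbc3*, *Btg2* and *Plk2* were the lowest. In tw18/tw18, *Bax* and *Mdm2* still led, but *Phlda3*, *Cdkn1a* and *Trp53inp1* came next and *Bbc3* was the lowest. Among all genes in the table, *Cdkn1a* lay above 66.4% in wild type and above 88.4% in tw18/tw18, while *Bax* lay above 94.7% and 95.5%. Without replicates the spread around these places is unknown.

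A longer list of 42 other p53 targets was described in the same way. Of the 38 at 1 FPKM or more in tw18/tw18 or wild type, 11 were higher and none was lower in tw18/tw18, a share of 28.9% beside 15.1% of all genes, with a median of 0.62. Against tw18/+ 12 of 38 were higher and none was lower, with a median of 0.57, and between tw18/+ and wild type none of 35 was higher and 1 was lower. *Ccng1*, a cyclin G gene that recruits phosphatase 2A to MDM2, was at 19.7 FPKM in wild type, 37.8 in tw18/+ and 94.6 in tw18/tw18. *Trp53i11* was at 9.03, 11.8 and 43.3 FPKM in the same order. *Eda2r*, a receptor of the TNF receptor family, was at 1.54, 2.56 and 7.83 FPKM. These 3 genes had log2 ratios to wild type of 2.27, 2.26 and 2.35, near those of *Cdkn1a* and *Btg2*. *Rprm*, a mediator of arrest in G2, reached 1.32 FPKM in tw18/tw18 from 0.149 in wild type, while *Ptprv* and the cytokine gene *Lif* reached 2.68 and 1.39 FPKM and were listed at 0 in wild type. The most abundant genes of the list did not follow: *Rps27l* was at 394 FPKM in wild type and 387 in tw18/tw18, and the replication clamp gene *Pcna* was at 336 and 192. The death receptor gene *Fas* and *Spata18* were listed at 0 in all 3 libraries.

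Of 20 genes for p53, its relatives, regulators, kinases and cofactors, 19 were at 1 FPKM or more in tw18/tw18 or wild type, and 1 of them was higher and none was lower against wild type, with a median of -0.02. The 1 was *Cdkn2a*, which encodes ARF, an inhibitor of MDM2, in another reading frame than the kinase inhibitor p16. It was listed at 0 in wild type and was at 0.502 FPKM in tw18/+ and 1.40 in tw18/tw18. *Usp7*, the deubiquitinase of MDM2 and p53, was at 75.3, 73.9 and 60.8 FPKM. In the BCL2 family and the caspases beside *Bax* and *Bbc3*, the median log2 ratio of 18 genes was 0.16 and none was lower. Cytochrome c (*Cycs*) was at 93.0, 92.5 and 75.4 FPKM and *Mcl1*, a prosurvival member, at 68.4, 60.1 and 67.2. Of 25 cell cycle genes that p21 is known to repress through RB-family complexes, none passed the threshold in either direction, the median was -0.20, and 19 had a ratio below 0. In that list *Mcm3*, a subunit of the replicative helicase, was at 161 FPKM in wild type and 90.5 in tw18/tw18, while *Rrm2*, a subunit of ribonucleotide reductase, was at 219.8 and 294.

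**Figure D3:**
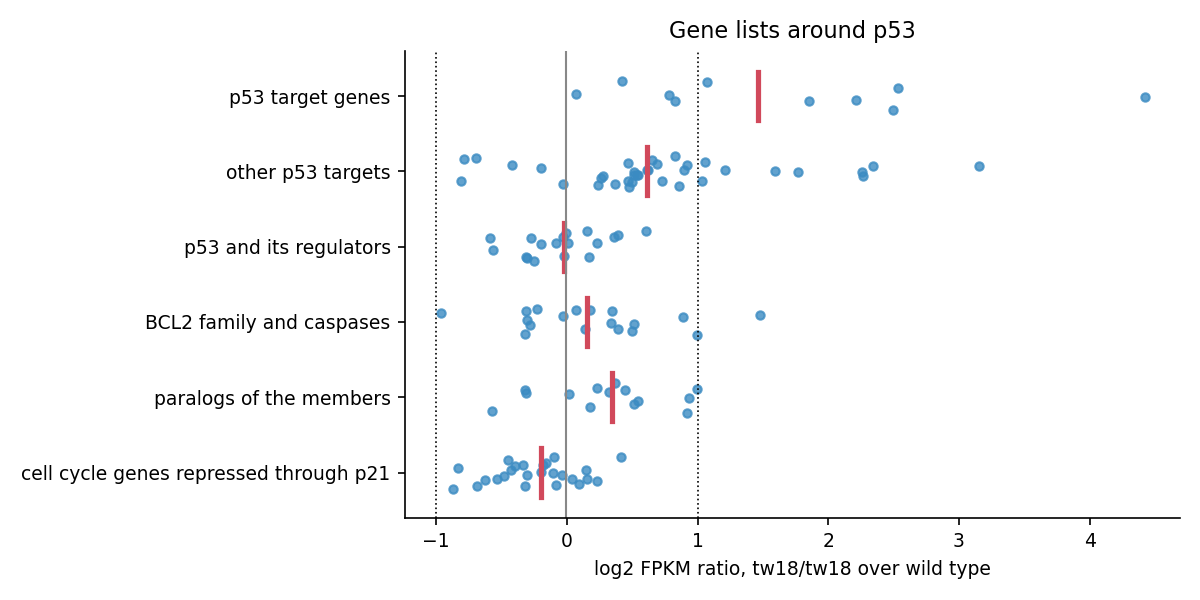
Log2 FPKM ratio of tw18/tw18 to wild type for each gene (points) of 6 lists, with the list's median (red line), the median of all genes (grey line) and log2 ratios of -1 and 1 (dotted lines). Genes under 1 FPKM in both libraries are left out, *Ptprv*, *Lif* and *Cdkn2a*, listed at 0 in wild type and above 1 FPKM in tw18/tw18, have no ratio and no point, and the medians lie at 1.46 for the 10 targets, 0.62 for other p53 targets and -0.20 for the cell cycle genes.

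Most of the targets belong to small families, and their relatives were set beside them. The relatives *Plk3* and *Sesn1* are also in the list of other p53 targets above. Of 16 relatives, 14 were at 1 FPKM or more, and none of these passed the threshold in either direction in tw18/tw18 against wild type, with a median of 0.34. Against tw18/+, 3 of 14 were higher, *Phlda1* at a log2 ratio of 1.55 beside 1.62 for *Phlda3*, *Cdkn1c* at 1.20 beside 1.94 for *Cdkn1a*, and *Sesn1* at 1.05 beside 1.19 for *Sesn2*, so the gap between target and relative seen against wild type was smaller there. The ratios that follow are against wild type. Beside *Cdkn1a* at a log2 ratio of 2.21, the other inhibitors of its family had ratios of 0.01 (*Cdkn1b*) and 0.94 (*Cdkn1c*). Beside *Plk2* at 4.42, the kinase genes *Plk1*, *Plk3* and *Plk4* had ratios of -0.32, 0.54 and -0.57. *Btg1* had a ratio of 0.32 beside 2.49 for *Btg2*. *Phlda1*, at 0.9985, came nearest to the threshold, beside 2.53 for *Phlda3*. *Trp53inp2* was also close under it, at 0.92 beside 1.85 for *Trp53inp1*. Relatives of the targets with smaller ratios, *Sesn1* (0.37), *Mdm4* (0.23), *Bak1* (-0.32) and *Bok* (0.52), were also under 1. Of the 50-base words in their transcripts, *Trp53inp1*, *Plk2*, *Btg2*, *Sesn2*, *Bbc3*, *Phlda3* and *Perp* shared none with any other gene, while *Cdkn1a* shared 2.14% and *Mdm2* 1.21%.

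**Figure D4:**
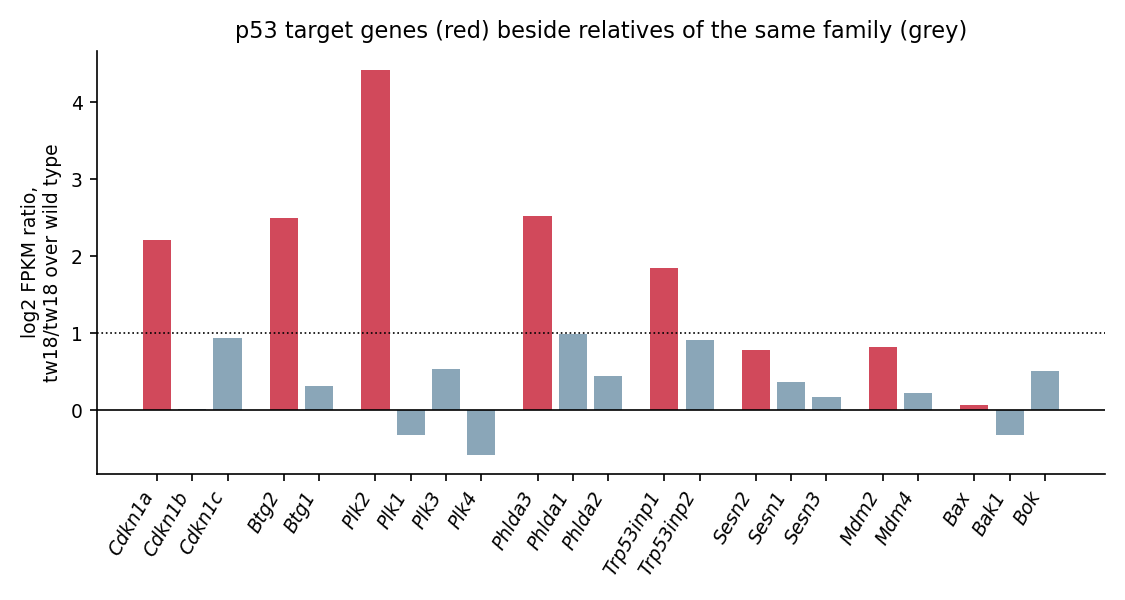
Log2 FPKM ratio of tw18/tw18 to wild type (bars from 0) for 8 of the p53 target genes (red) and their relatives of the same family (grey), with the log2 ratio of 1 as a dotted line. The red bar is the tallest in the families of *Cdkn1a*, *Btg2*, *Plk2*, *Phlda3*, *Trp53inp1*, *Sesn2* and *Mdm2*, whereas *Bax* (0.07) lies below *Bok* (0.52).

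Markers of several other cell types were higher in tw18/tw18 along with the targets. Of 10 epiblast markers, 5 were lower and none was higher against wild type, with a median of -0.95, and their summed level was 1889 FPKM in wild type, 1997 in tw18/+ and 963 in tw18/tw18. None of 11 visceral endoderm markers passed, with sums of 895, 881 and 1159 FPKM. Of 10 stroma markers 8 were higher, with sums of 83.8, 110.3 and 509 FPKM, and *Mgp* alone was at 16.2, 43.0 and 180.2. Of 9 endothelium markers 6 were higher, with sums of 45.01, 29.3 and 102 FPKM. Parietal endoderm markers were higher in 7 of 8, with sums of 398, 474.5 and 937 FPKM, and extra-embryonic ectoderm markers in 5 of 7, with sums of 50.01, 36.9 and 84.4. Of 10 decidua markers 8 were higher and 1 was lower, *Prl8a2*, whose 1504 FPKM in wild type, 155 in tw18/+ and 377 in tw18/tw18 weighed most in the sums of 1706, 327 and 952 FPKM. Against tw18/+, 10 of 10 decidua, 9 of 10 stroma and 9 of 9 endothelium markers were higher. Their medians were 1.74, 2.07 and 1.77, beside 1.71 for the 10 targets. In that pair 5 of 7 extra-embryonic ectoderm, 2 of 8 parietal endoderm and 2 of 11 visceral endoderm markers were higher. Of 10 epiblast markers 5 were lower there and none was higher. Smooth muscle, erythroid, immune and trophoblast giant cell markers were also highest in tw18/tw18 by their sums, at 20.1, 177, 39.1 and 247 FPKM beside 8.04, 52.5, 22.7 and 133 in wild type, but their genes did not all go one way. Against wild type, 2 of 4 smooth muscle markers were higher and 2 lower (median -0.04), 3 of 4 erythroid markers higher and 1 lower, 1 of 4 giant cell markers higher and 1 lower, and 2 of 5 immune markers higher and none lower. The giant cell sum was mostly *Prl3d1*, at 113 FPKM in wild type and 202 in tw18/tw18. The erythroid sum was mostly *Hba-a1* in wild type and *Hba-a2* in tw18/tw18, near-identical copies whose split is uncertain. The beta-globin gene *Hbb-bs* was at 0.018 FPKM in wild type, 0.555 in tw18/+ and 47.6 in tw18/tw18. Among those listed at 0 in all 3 libraries were *Prl3b1* and *Ctsq* of the giant cell list and *Hba-x*, *Hbb-y* and *Hbb-bh1* of the erythroid list. The immediate early genes, which dissociation and handling can induce, had 3 of 9 higher and none lower. The part of these cells and of handling in the levels of the 10 targets was not tested.

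**Figure D5:**
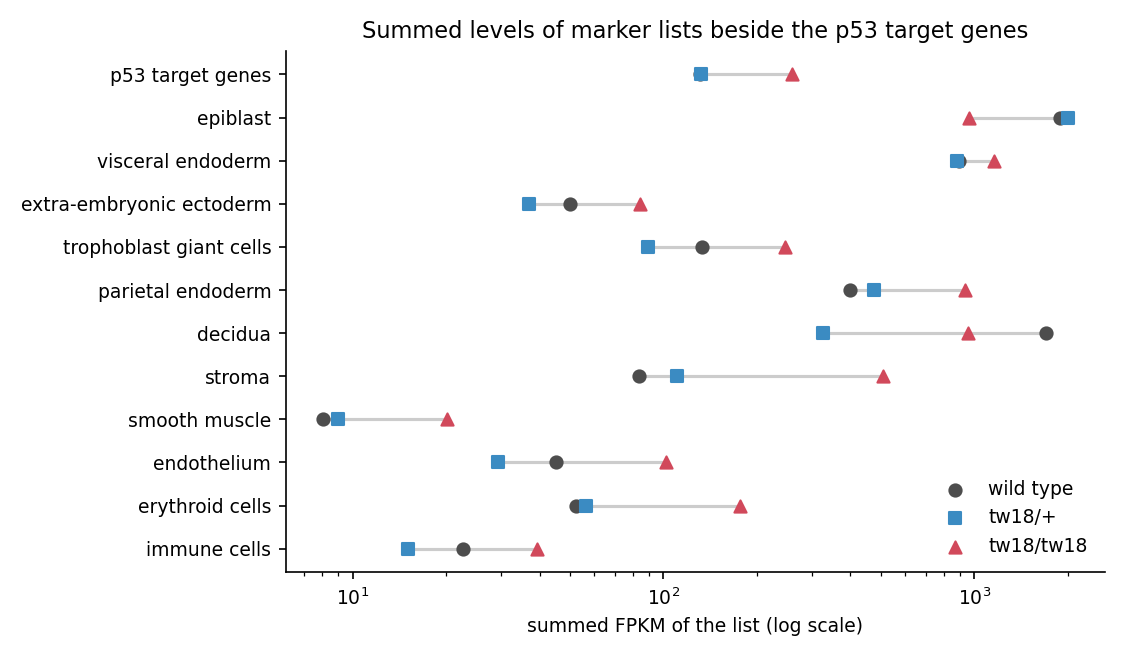
Summed FPKM on a log axis of the 10 p53 target genes and of 11 lists of cell type markers in the wild-type (circle), tw18/+ (square) and tw18/tw18 (triangle) library. The triangle is the highest point for the targets (259.5 FPKM) and for all marker lists but epiblast (963) and decidua (952), where it lies below wild type.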

How the data were processed

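RNA-seq was carried out on 3 samples, 1 library per genotype, whose genotype was taken from the labels. Total RNA went through the TotalScript kit, with paired-end reads of 50 bp. TopHat (alignment to mm10, GRCm38) and Cuffdiff were used by the authors to make the deposited FPKM values, and the submitters' processing notes also name Bowtie 1.0.0 and Cufflinks 2.2.1. The annotation and library normalization were not given in the sources used here. FPKM values are relative to the library total, so 1 very abundant gene lowers all others.

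Ratios were computed from the table of 23421 genes with pandas 2.3.3 and numpy 2.4.6 in Python 3.11.15, intervals with scipy 1.17.1 and plots with matplotlib 3.10.9. A gene was counted as higher or lower when the log2 ratio without a pseudocount was at least 1 in size and 1 library of the pair was at 1 FPKM or more. Genes at 0 in 1 library were counted if the other value passed. Medians over a list include such genes. Depth was estimated from the low FPKM values of 7539 genes with 1 RefSeq transcript, with 150 bp allowed for the fragment, and 71.5% to 79.8% of the low values were within 0.2 of a whole fragment. Intervals are 95% exact binomial (Clopper-Pearson) intervals on fragments estimated from transcript length. They cover counting error only. They take fragments as independent, which PCR copies are not, so they may be too narrow. Coordinates are from GENCODE M21 or RefSeq for GRCm38, and promoter windows from RefSeq for GRCm38.p6.

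The 10 targets and all lists were chosen with earlier results of these data known. Named besides the 10 were *Trp53*, *Mdm4*, *Ppp2r1a* and *Lars2*, in each p53 list up to 6 genes per direction that passed against both other libraries and the 2 of highest FPKM in wild type, and in marker lists the 2 of highest FPKM in tw18/tw18. Other names, such as *Fas*, *Spata18*, *Gm45808*, *Hba-a1* and the relatives, were chosen after their values were seen. *Tigar*, *Pidd1*, *Trp53cor1* and *Adgre1* were found under older symbols and *Hbb-bt* was not matched. Some genes that this rule names are not reported here. Alternatives were pseudocounts of 0.1 and 1 FPKM, no filter or one at 5 FPKM, centring, rescaling, a log2 threshold of 2 and tw18/+ as the reference.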

Additional observations from a re-analysis of the deposited data

How the results depend on the processing

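The 6 targets counted as higher in tw18/tw18 against wild type became 5 with a pseudocount of 1 FPKM or a filter at 5 FPKM, 7 after rescaling the libraries to equal FPKM sums or with tw18/+ as the reference, and 4 at a log2 threshold of 2. All genes higher went from 15.1% to 9.5%, 8.96%, 19.3%, 14.9% and 5.76% under these settings, and to 24.2% with no filter, where 6 targets were higher. The 7 targets higher against tw18/+ became 1 at a log2 threshold of 2. For tw18/+ against wild type, the 1 target higher became 0 with a pseudocount of 1 FPKM, with the filter at 5 FPKM and at a threshold of 2, and the 1 lower became 0 at a threshold of 2. The 11 other p53 targets higher against wild type (of 38) became 7 of 28 with the filter at 5 FPKM, 6 at a threshold of 2 and 15 after rescaling, and lay between 9 and 12 under the other settings. The median of the 10 ranged from 1.26 to 1.85. Of 69 log2 ratios of single targets under alternatives, none changed sign, 64 kept their side of 1, 3 passed it (*Mdm2* at 1.04 after rescaling, *Sesn2* at 1.19 and *Perp* at 1.82 against tw18/+) and 2 dropped under it (*Bbc3* at 0.81 with a pseudocount of 1 FPKM and 0.28 against tw18/+). Rescaling added 0.21 to every log2 ratio of tw18/tw18 to wild type and centring 0.05. No paired analysis was possible because each genotype had 1 library, and for the same reason no library could be left out.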

Other observations

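Immediate early genes, which are transcribed within minutes of a stimulus, were lowest in tw18/+ for several members. *Egr1* was at 3.28 FPKM in wild type, 0.962 in tw18/+ and 3.62 in tw18/tw18, and *Jun* at 5.23, 2.95 and 9.97. *Btg2*, which is also counted among the immediate early genes, had its lowest level in wild type. *Zfp36*, which destabilizes mRNAs, was at 10.3, 11.96 and 26.8 FPKM. Against tw18/+, 5 of 9 immediate early genes were higher in tw18/tw18, with a median of 1.05. These genes were chosen after their values were seen, and with 1 library per genotype no difference among them was tested.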
